A study of Homo sapiens with 24 samples.

Results

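The genes described here are the 40 whose products license replication origins, unwind DNA at the fork and copy it, followed in MDA686TU (686Tu) cells treated with epigallocatechin gallate (EGCG), resveratrol or both. The rule for membership uses their names and no measured value, but the members were chosen with earlier results of these data known. Every row of the raw count table whose Ensembl identifier maps to 1 of the 40 symbols was taken, which found 40 of 40 genes among the 60617 in the table. All 40 passed the filter on low counts and are among the 15476 genes tested. MDA686TU is an established squamous carcinoma line from the head and neck, and every library came from it. EGCG is the main catechin of green tea and resveratrol is a polyphenol of grapes. RNA was taken after 24 h from 4 groups of 6 libraries each. Control cells were untreated, EGCG was given at 40 µM, resveratrol was given at 15 µM, and the combination held both agents at these doses. The question of the experiment was how each agent and the pair of them change gene expression. DMSO was the solvent of the resveratrol stock, and water that of EGCG. Whether the control cells were given DMSO is not stated, so an effect of resveratrol and an effect of its solvent cannot be told apart. The labels do not say whether the 6 libraries of a group came from separate cultures, so the p-values measure the spread between these samples, which may be technical. Stranded mRNA libraries were read in pairs, and the values used here are counts per gene.

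Replication starts from licensed origins. In G1 the origin recognition complex (ORC1 to ORC6) marks the origin, and CDC6 and CDT1 load the MCM2 to MCM7 ring onto DNA. Geminin (GMNN) binds CDT1 and prevents a repeated round of loading. At the start of S phase the kinase CDC7 with its activator DBF4 phosphorylates the ring, after which CDC45 and the GINS complex join it to form the active helicase, with help from MCM10. DNA polymerase alpha and primase lay down primers, the RFC complex loads the PCNA clamp, polymerases epsilon and delta extend the strands, and FEN1 and LIG1 finish the Okazaki fragments. Ribonucleotide reductase (RRM1, RRM2) and thymidylate synthase (TYMS) supply the nucleotides. Many of these genes are known E2F targets, transcribed as cells leave G1. In bulk RNA, fewer cells in S phase and less RNA of a gene per cell cannot be told apart.

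Promoter windows were read from RefSeq (build GRCh38.p14), each with 250 bases before and 50 after the start of a gene, for 37 of the 40 genes. Where a gene has several windows, the first listed was used. Those printed here belong to the 2 genes that fell most with resveratrol (GINS2 and ORC5) and the 2 that rose most (POLA2 and ORC3), among genes with a window. MCM6 was added after its values were seen, because its window holds the most E2F-type matches. Capitals mark E2F-type letters (TTTGGCGC, TTTCCCGC, TTTCGCGC or TTTGCCGC) and CCAAT, each on either strand, so that their reverse complements (GCGCCAAA, GCGGGAAA, GCGCGAAA, GCGGCAAA and ATTGG) are in capitals too.

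GINS2, chr16:85688905-85689204, minus strand: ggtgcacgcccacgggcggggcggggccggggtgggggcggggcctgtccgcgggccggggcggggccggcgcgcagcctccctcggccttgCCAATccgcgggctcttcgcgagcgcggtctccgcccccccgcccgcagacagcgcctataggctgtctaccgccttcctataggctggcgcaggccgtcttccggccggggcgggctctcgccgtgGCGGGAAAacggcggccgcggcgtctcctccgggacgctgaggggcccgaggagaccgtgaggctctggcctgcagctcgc
ORC5, chr7:104207964-104208263, minus strand: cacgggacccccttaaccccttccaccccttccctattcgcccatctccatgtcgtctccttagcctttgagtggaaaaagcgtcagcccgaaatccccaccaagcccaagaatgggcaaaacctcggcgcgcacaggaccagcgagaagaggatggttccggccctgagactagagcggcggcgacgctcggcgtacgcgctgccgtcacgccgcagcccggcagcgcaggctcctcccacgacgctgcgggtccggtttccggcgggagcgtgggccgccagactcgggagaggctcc
POLA2, chr11:65261712-65262011, plus strand: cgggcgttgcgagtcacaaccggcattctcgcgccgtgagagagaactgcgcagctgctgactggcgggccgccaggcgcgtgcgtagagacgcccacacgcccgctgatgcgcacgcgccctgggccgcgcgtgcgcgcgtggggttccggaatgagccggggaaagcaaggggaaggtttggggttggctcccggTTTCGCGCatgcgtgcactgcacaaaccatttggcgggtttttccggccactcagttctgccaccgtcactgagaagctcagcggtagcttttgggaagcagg
ORC3, chr6:87589885-87590184, plus strand: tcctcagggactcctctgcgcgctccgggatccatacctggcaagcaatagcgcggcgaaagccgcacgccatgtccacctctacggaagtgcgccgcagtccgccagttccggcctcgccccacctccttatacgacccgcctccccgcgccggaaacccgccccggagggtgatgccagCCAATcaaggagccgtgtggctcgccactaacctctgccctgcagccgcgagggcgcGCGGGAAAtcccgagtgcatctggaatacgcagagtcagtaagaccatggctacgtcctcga
MCM6, chr2:135876394-135876693, minus strand: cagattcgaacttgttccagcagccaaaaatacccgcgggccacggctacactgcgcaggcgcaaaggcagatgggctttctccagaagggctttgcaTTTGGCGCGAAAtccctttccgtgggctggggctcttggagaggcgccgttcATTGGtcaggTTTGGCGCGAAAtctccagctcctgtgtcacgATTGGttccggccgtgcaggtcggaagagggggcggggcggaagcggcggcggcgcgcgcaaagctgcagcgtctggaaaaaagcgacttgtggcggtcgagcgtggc

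E2F-type letters stood in 17 of the 37 windows (45.9%), against 5.34% of 10379 windows taken 1 per tested gene and 3.31% of all 35116 windows in the table. CCAAT stood in 20 of 37 (54.1%), against 36.8% and 34.6%. GINS2 has an E2F-type match at -31 and CCAAT at -158, counted from the start of the gene. POLA2, which moved the other way, has an E2F-type match at -53. In MCM6 the matches at -152 and -148 overlap on opposite strands, as do those at -90 and -86. ORC5 has neither kind of letters in its window, and ORC3 has an E2F-type match at -12. The letters did not follow the direction of change: they were in 9 of 16 windows of genes downregulated by resveratrol (56.2%), in 5 of 10 of upregulated genes (50%) and in 3 of 11 of the others (27.3%). Of the replicative helicase genes 7 of 9 windows held them (77.8%), but the 3 members without a window (MCM4, MCM5 and GINS4) are all of this group. A match is a description of the sequence, not evidence of binding.

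Depth and spread set what can be seen in these genes. The libraries held 7034872 to 11735574 counts, and the biological coefficient of variation over all tested genes was 5.32%. Of the 8 squamous markers (KRT5, KRT14, KRT6A, KRT6B, TP63, CDH1, EPCAM and SFN) all were tested, and the sum of their normalized counts lay between 139155 and 147535 in control libraries, 134173 and 151007 in EGCG libraries, 116889 and 124086 in resveratrol libraries, and 114342 and 123976 in combination libraries. Most of this sum came from KRT5, KRT6A and KRT14. Of the 8, 4 fell with resveratrol (KRT5, KRT14, KRT6A and SFN) and CDH1 rose (0.29, and 0.43 with the combination), and the part of these differences in the results was not tested. Of 10 markers of blood, vessel and fibroblast cells only VWF, COL1A1 and COL1A2 passed the filter, while PTPRC, the pan-leukocyte marker, had 8 counts and PECAM1, an endothelial marker, 2 counts over all 24 libraries. The sum of these 10 was 1138 to 1368 in control libraries, 911 to 1127 in EGCG libraries, 1336 to 1582 in resveratrol libraries and 1549 to 1770 in combination libraries, nearly all from COL1A1, and its part in the results below was not tested. Without COL1A1 the sums were 34.7 to 54.6, 34.7 to 52.6, 42.5 to 55.7 and 35.0 to 58.7. Replicates 1 to 3 of every group had 0.249% to 0.326% of their counts on mitochondrial transcripts, while replicates 4 to 6 had 0.448% to 0.775%. Neither the labels nor the methods name this division as a batch, and each side holds 3 libraries of every group.

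In untreated cells the 40 genes covered a wide range of levels. Per length, on the authors' FPKM scale, PCNA was highest with 110.2 ± 3.998 (SD, n = 6) and POLA2 lowest with 2.76 ± 0.246, and the median of the 40 gene means was 18.9. After PCNA came FEN1 (99.4 ± 2.38), MCM7 (92.2 ± 1.62), MCM3 (74.8 ± 1.66), MCM2 (57.1 ± 1.55) and MCM6 (51.8 ± 1.57), each with its lowest library above the highest of the next. MCM4 (48.3 ± 0.919) and TYMS (48.2 ± 1.48) overlapped, and from RFC2 (30.9 ± 1.59) down to CDC45 (27.2 ± 1.13) each gene overlapped with the next. At the bottom of the order were POLA1 (5.13 ± 0.283), GINS4 (4.86 ± 0.264), ORC4 (3.15 ± 0.317) and POLA2. The 40 genes together took a median of 0.447% of all counts in control libraries, 0.449% in EGCG libraries, 0.441% in resveratrol libraries and 0.443% in combination libraries.

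With EGCG alone no member passed the test, as few genes did anywhere. A gene was counted as differentially expressed (DEG) when its Benjamini-Hochberg adjusted p over all tested genes was under 0.1 and its unadjusted p under 0.05 in edgeR's quasi-likelihood test, the limits that the study's methods give. By this rule 0 of the 40 were upregulated or downregulated, where 0.905% and 0.859% of all tested genes were, so a count of 0 is near the share over all genes. With DESeq2 the count was also 0, and 2 genes (ORC5 and DBF4) had an unadjusted p under 0.05 in edgeR. The log2 fold changes ran from -0.16 for ORC5 (adjusted p = 0.298 in edgeR, the lowest of the 40) to 0.11 for POLA2. The 95% intervals, taken from the standard errors, reached at most -0.29 for ORC5 and 0.25 for POLA2, so that larger changes than these lie outside the interval of every member. The interval of ORC5 (-0.29 to -0.04) and that of DBF4 (-0.27 to -0.01) did not include 0. Upward, those of LIG1 (0.00018 to 0.17) and RRM1 (3.3e-05 to 0.12) also left out 0, but only barely. The unadjusted p of these 2 in edgeR was not under 0.05.

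Resveratrol changed 28 of the 40 genes, 10 of them upward and 18 downward. These were 25.0% and 45.0% of the 40, against 28.9% and 28.0% of all tested genes. The upregulated share was thus near that of all genes, and the downregulated share was above it. All 6 resveratrol libraries lay above the 6 control libraries for 4 members (10.0%) and below them for 15 (37.5%), where 15.3% and 15.8% of all genes did so. The median log2 fold change of the 40 was -0.07, beside 0.00 over all tested genes, and the median size of the change was 0.15 beside 0.20. None of the 40 reached 1.5-fold. The share of all tested genes at this limit was not counted here. The paper's own lists at 1.5-fold hold only a small part of all genes, so this is no trait particular to the 40. With scaling to library size in place of TMM, which moves the median gene upward by 0.09, the split was 14 up and 14 down. The shares of all tested genes under this scaling were not counted, so this split cannot be set against them.

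**Figure D1:**
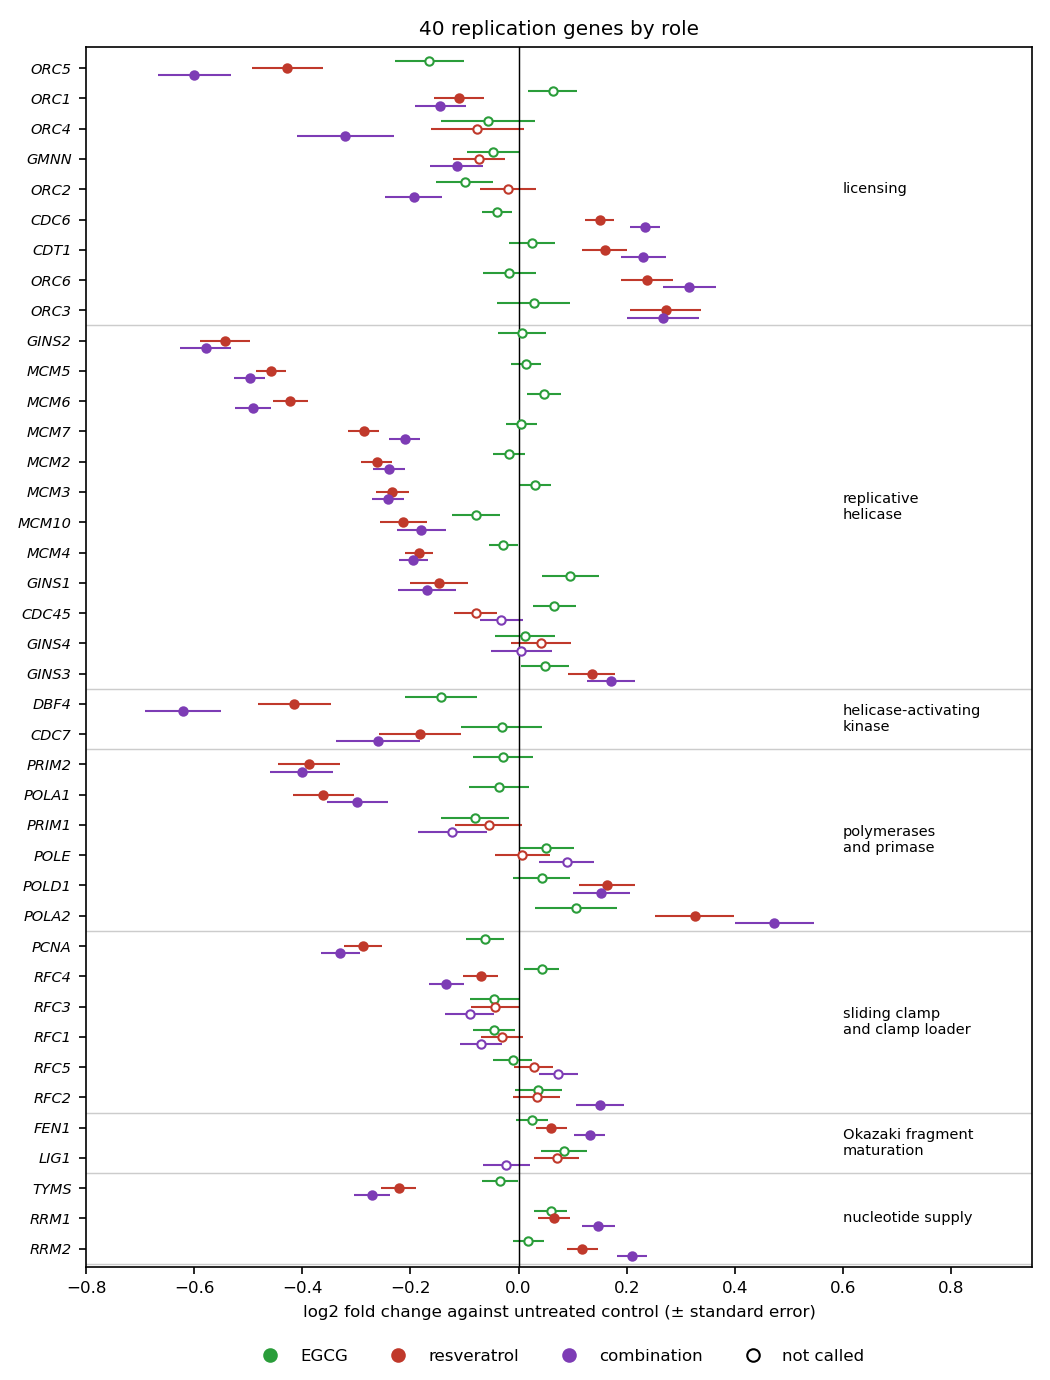
Log2 fold changes of the 40 genes against the untreated control, grouped by role, from edgeR with bars of ± 1 standard error; filled points are DEGs and open points are not. EGCG points stay near 0, while resveratrol and combination points lie together on 1 side of 0 for most genes, left of it for MCM2 to MCM7 and right of it for CDC6, CDT1, ORC3 and ORC6.

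Most replicative helicase genes fell. With resveratrol 9 of the 12 were downregulated, 1 was upregulated and 2 were not called, and the median log2 fold change was -0.22. Of all tested genes 28.0% fell and 28.9% rose. All 6 subunits of the MCM2 to MCM7 ring fell, and for all 6 the highest resveratrol library was below the lowest control library. Their changes ran from -0.18 for MCM4 to -0.46 for MCM5.

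Gene positions below are those of build GRCh38. MCM5 (ENSG00000100297, chr22:35400134-35425431, plus strand) lies at the gate through which DNA enters the ring. Its normalized counts were 2403 to 2556 in the control (median 2459), 2441 to 2583 with EGCG (2499), 1737 to 1888 with resveratrol (1789) and 1692 to 1788 with the combination (1764). The libraries with resveratrol, alone or combined, were all below those without it. The log2 fold change with resveratrol was -0.46 ± 0.0281 (SE; edgeR adjusted p = 3.43e-16), which is 0.728 of the control level. MCM6 (ENSG00000076003, chr2:135839626-135876443, minus strand), another subunit of the ring, had 1793 to 1944 normalized counts in the control (median 1862), 1820 to 2055 with EGCG (1922), 1362 to 1441 with resveratrol (1385) and 1277 to 1390 with the combination (1313). Again no library with resveratrol reached a library without it. The change was -0.42 ± 0.0324 with resveratrol (edgeR adjusted p = 1.80e-13). For genes whose groups do not overlap, the two-sided exact permutation test over 6 libraries against 6 gives p = 0.00216, the smallest it can give.

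GINS2 (ENSG00000131153, chr16:85676198-85690073, minus strand) encodes a subunit of the GINS complex and fell most of the 40 genes with resveratrol. The control libraries held 754 to 929 normalized counts (median 857), the EGCG libraries 776 to 910.2 (852), the resveratrol libraries 535 to 622 (571) and the combination libraries 508 to 601 (571). The 2 groups without resveratrol overlapped with each other and lay above the 2 groups with it. Its log2 fold change was -0.54 ± 0.0466 (edgeR adjusted p = 2.95e-12). The 4 GINS genes did not move as a unit, although their products form 1 complex. GINS1 was downregulated (-0.15 ± 0.0533, edgeR adjusted p = 0.0197), GINS3 was upregulated (0.14 ± 0.0440, edgeR adjusted p = 0.00973), and GINS4 (0.04 ± 0.0549) was not called. CDC45 (-0.08 ± 0.0395, edgeR adjusted p = 0.0912 and unadjusted p over 0.05) was not called either, and MCM10 fell (-0.21 ± 0.0442, edgeR adjusted p = 0.000109). GINS2 and GINS1 each share genomic sequence with a gene on the opposite strand. The partner had 107.8% of the counts of GINS2 in the first case and 21.9% of those of GINS1 in the second. Overlaps given here and below are those of whole gene spans, introns included, and whether exons overlap was not checked. With the strand setting of the counting not given either, whether reads of such pairs were mixed is not known. The partner of GINS2 had a log2 fold change of 0.20 with resveratrol and NINL, the partner of GINS1, of 0.59, in the direction opposite to the members.

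**Figure D2:**
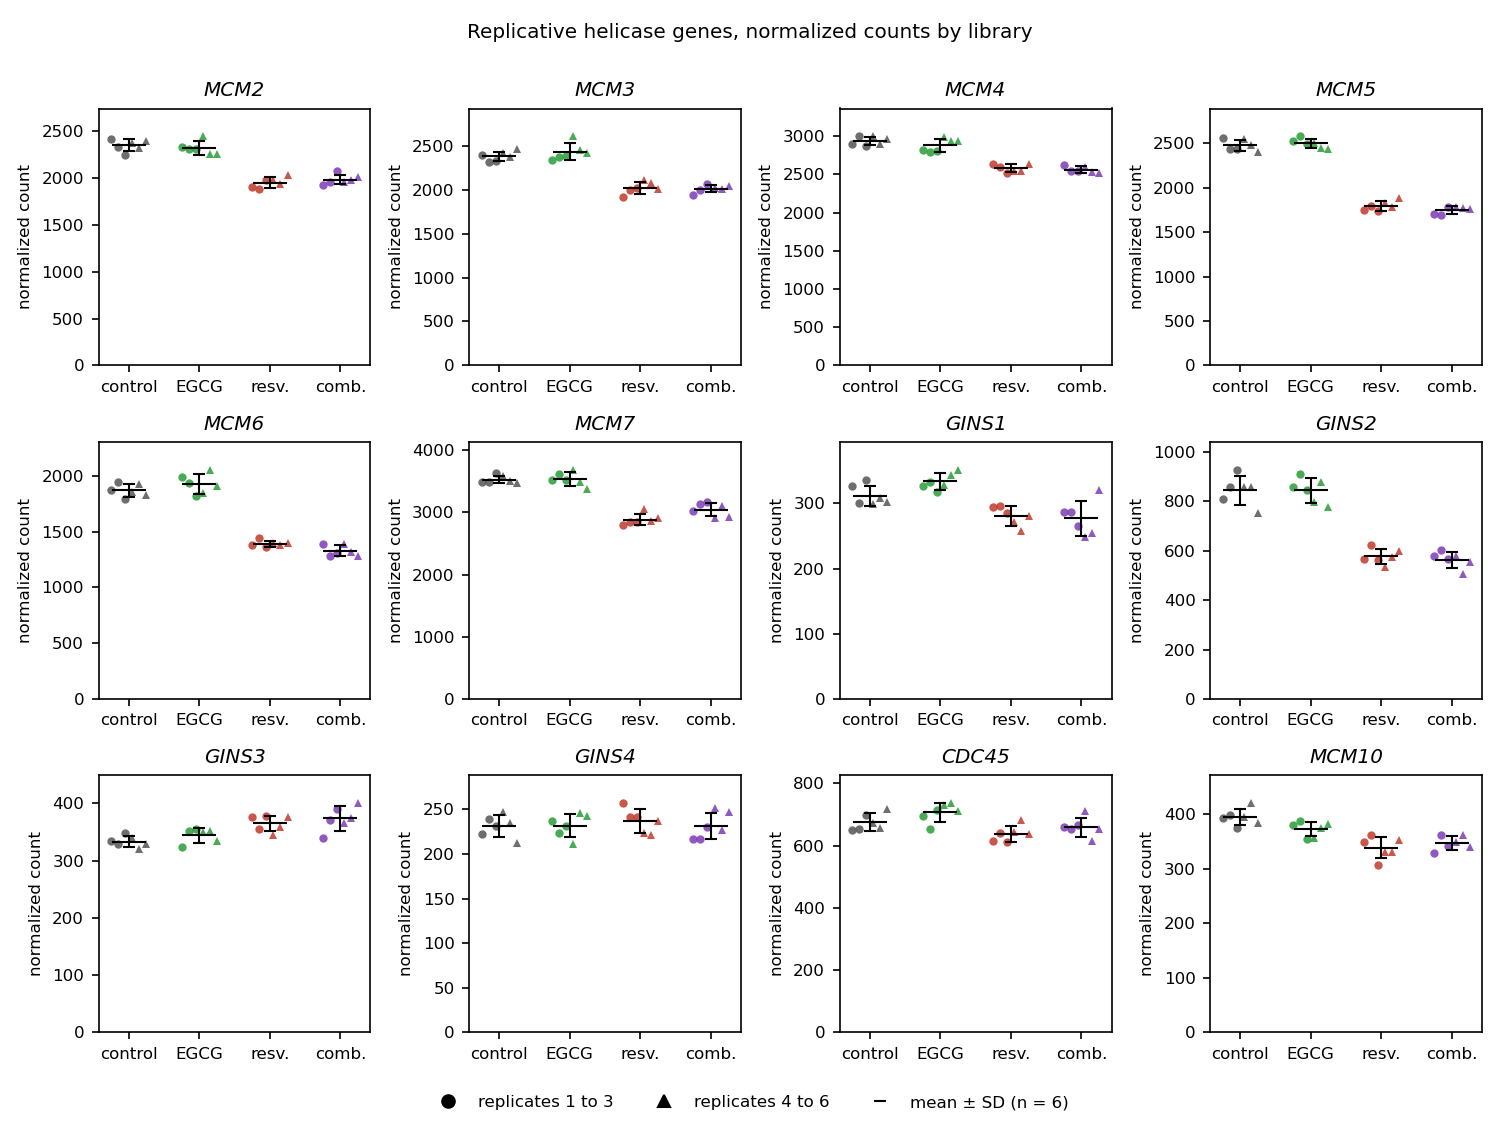
Normalized counts of the 12 replicative helicase genes in the 24 libraries, with the mean and SD of each group of 6; circles are replicates 1 to 3 and triangles replicates 4 to 6. For MCM2 to MCM7 and GINS2 the resveratrol and combination libraries lie below all control and EGCG libraries, whereas the libraries of GINS3, whose group means are higher with resveratrol, of GINS4 and of CDC45 overlap between groups.

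The licensing genes split. With resveratrol 4 of the 9 were upregulated (ORC3, ORC6, CDC6 and CDT1), 2 were downregulated (ORC1 and ORC5) and 3 were not called (ORC2, ORC4 and GMNN), with a median log2 fold change of -0.02. Such a mix of directions also held over all tested genes, of which 28.9% rose and 28.0% fell. The loading factors CDC6 (0.15 ± 0.0273, edgeR adjusted p = 1.66e-05) and CDT1 (0.16 ± 0.0420, edgeR adjusted p = 0.00171) rose, with no overlap between resveratrol and control libraries, while the ring they load fell.

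Within the origin recognition complex the largest changes went in opposite directions. ORC5 (ENSG00000164815, chr7:104126341-104208047, minus strand), a core subunit of the ATPase ring of the complex, had 256 to 285 normalized counts in the control (median 275), 202 to 256 with EGCG (247), 189.9 to 227 with resveratrol (198) and 143 to 203 with the combination (180.0). The resveratrol libraries were all below the control libraries, and the EGCG libraries lay between, reaching the lower edge of the control and overlapping the resveratrol libraries. The change with resveratrol was -0.43 ± 0.0653 (edgeR adjusted p = 9.43e-07). ORC3 (ENSG00000135336, chr6:87590067-87667453, plus strand), a subunit that holds ORC2 in the complex, had 254 to 344 normalized counts in the control (median 308), 280.2 to 337 with EGCG (318), 331 to 389.7 with resveratrol (369) and 305 to 423 with the combination (372). Control and resveratrol libraries overlapped at their edges. It rose by 0.27 ± 0.0660 on the log2 scale (edgeR adjusted p = 0.000713, exact permutation p = 0.00433). ORC6 (ENSG00000091651, chr16:46689643-46698394, plus strand), which helps the complex recruit the MCM ring, had 496 to 586 normalized counts in the control (median 526), 471 to 567 with EGCG (535), 572 to 672 with resveratrol (635) and 606 to 699 with the combination (678). The overlap with the control was slight with resveratrol and absent with the combination. Its change was 0.24 ± 0.0483 with resveratrol (edgeR adjusted p = 8.32e-05). ORC1, which is the subunit with the most marked cell cycle regulation in human cells, fell slightly (-0.11 ± 0.0457, edgeR adjusted p = 0.0423), with changes of -0.18 in replicates 1 to 3 taken alone and -0.04 in the others.

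**Figure D3:**
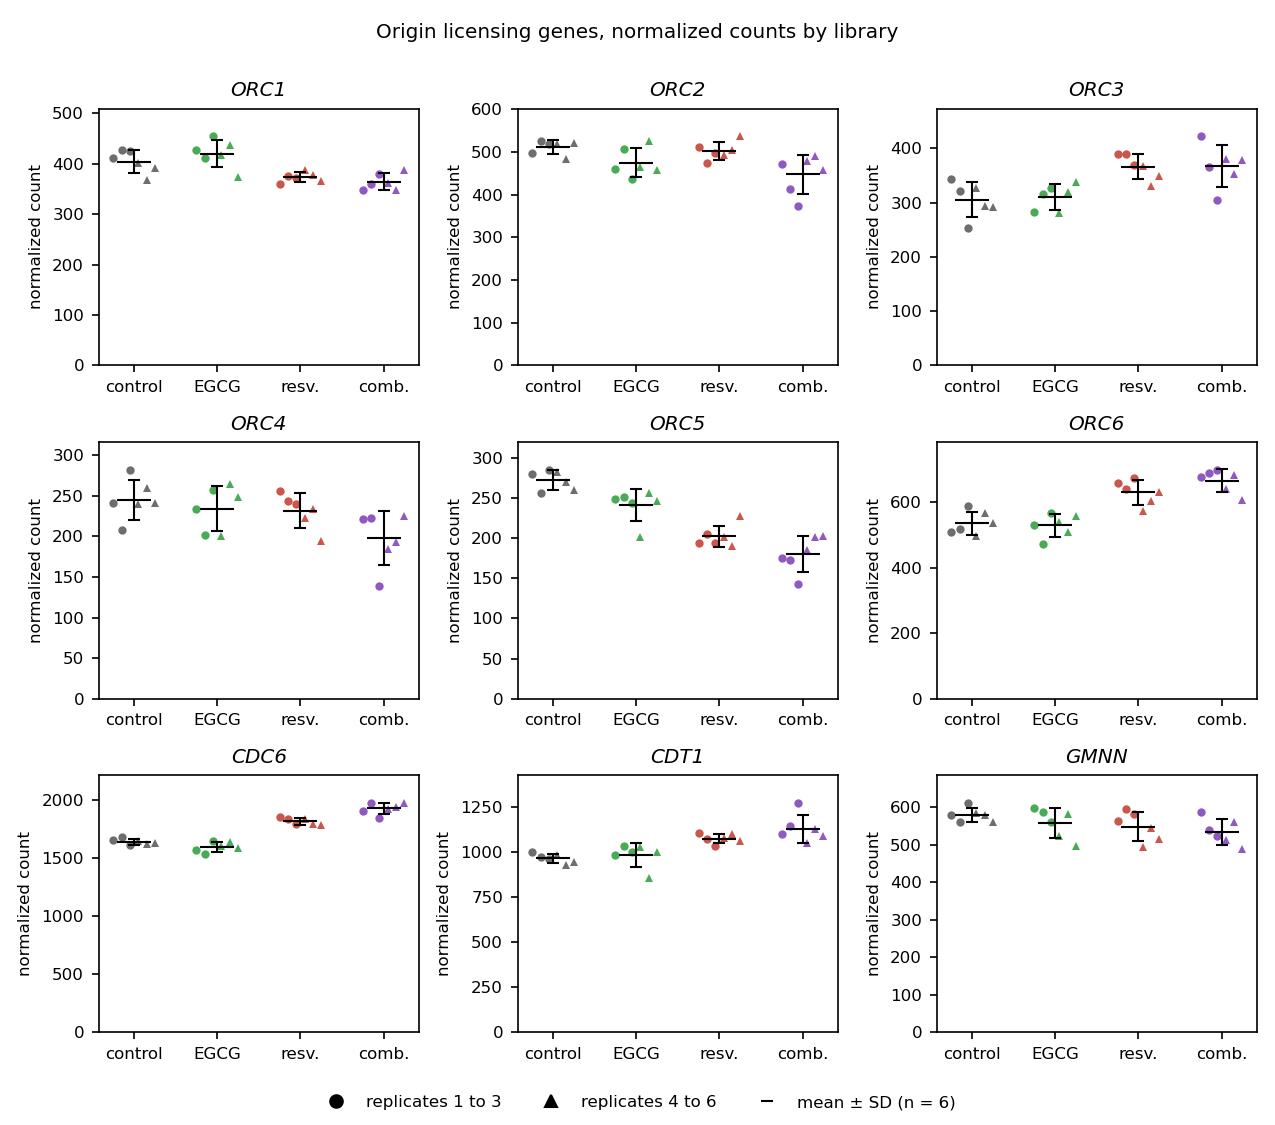
Normalized counts of the 9 licensing genes in the 24 libraries, with the mean and SD of each group of 6; circles are replicates 1 to 3 and triangles replicates 4 to 6. ORC5 falls and ORC3, ORC6, CDC6 and CDT1 rise with resveratrol and the combination, and combination replicate 3 is the lowest of its group for ORC2, ORC3, ORC4 and ORC5.

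Both genes of the helicase-activating kinase were downregulated by resveratrol. DBF4 (ENSG00000006634, chr7:87876216-87909553, plus strand), the activating subunit, had 358 to 452 normalized counts in the control (median 408), 344 to 406 with EGCG (364), 285 to 329 with resveratrol (305) and 192 to 299 with the combination (281). All libraries with resveratrol lay below all libraries without it. The change was -0.42 ± 0.0676 (edgeR adjusted p = 2.92e-06). CDC7, the catalytic subunit, fell by 0.18 on the log2 scale (SE 0.0754, edgeR adjusted p = 0.0413), but its groups overlapped (exact permutation p = 0.0758) with changes of -0.29 in replicates 1 to 3 taken alone and -0.06 in the others. DBF4 has pseudogenes in the table with a mean of 63.3 counts per library together, so part of its reads may be assigned to copies, and SLC25A40 on the opposite strand of the locus had a log2 fold change of -0.13 (edgeR adjusted p = 0.337).

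Among the 6 polymerase and primase genes 2 rose, 2 fell and 2 were not called. Over all tested genes 28.9% rose and 28.0% fell with resveratrol, so these counts were near the shares over all genes. The 4 subunits of polymerase alpha-primase moved apart. The catalytic subunit POLA1 (ENSG00000101868, chrX:24693873-24996986, plus strand) had 269 to 312 normalized counts in the control (median 281), 251 to 293 with EGCG (277), 209.5 to 240.3 with resveratrol (213) and 213 to 253 with the combination (227). Its resveratrol libraries were all below the control libraries. It fell by 0.36 on the log2 scale (SE 0.0564, edgeR adjusted p = 1.41e-06). A processed pseudogene inside the locus on the opposite strand, EEF1B2P3, had more counts than POLA1 and a log2 fold change of -0.19, so the level of POLA1 is uncertain. PRIM2 (ENSG00000146143, chr6:57314805-57646850, plus strand), the large subunit of primase, had 300.3 to 339.7 normalized counts in the control (median 327), 298 to 345 with EGCG (314), 224 to 257 with resveratrol (250.4) and 205 to 272 with the combination (251). No library with resveratrol reached one without it. The change was -0.39 ± 0.0574 (edgeR adjusted p = 5.37e-07). POLA2 (ENSG00000014138, chr11:65261913-65305959, plus strand), the regulatory subunit of polymerase alpha, went the other way. Its libraries held 118 to 149.5 normalized counts in the control (median 132), 122 to 155 with EGCG (146), 155 to 186 with resveratrol (166) and 153 to 203 with the combination (190.2). The lowest resveratrol library was above the highest control library. With a change of 0.33 ± 0.0731 (edgeR adjusted p = 0.000292) it rose most of the 40 genes. The catalytic primase subunit PRIM1 (-0.06 ± 0.0621) was not called, and it overlaps NACA on the same strand, whose counts were 1103% of its own. Of the catalytic subunits of the strand-extending polymerases, POLD1 rose (0.16 ± 0.0521, edgeR adjusted p = 0.00836) and POLE did not pass the test (0.01 ± 0.0506).

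The clamp and its loader differed. PCNA (ENSG00000132646, chr20:5114953-5126626, minus strand), the sliding clamp, had 1275 to 1411 normalized counts in the control (median 1353), 1233 to 1364 with EGCG (1267), 1041 to 1183 with resveratrol (1092) and 1028 to 1140 with the combination (1064). The libraries with resveratrol were all below those without it. It fell by 0.29 on the log2 scale (SE 0.0353, edgeR adjusted p = 1.27e-08). The 5 clamp loader genes stayed within 0.07 of 0 with resveratrol. RFC4 (ENSG00000163918, chr3:186789880-186807058, minus strand), a small subunit of the loader, was just past the limits: 736 to 799 normalized counts in the control (median 778), 764 to 832 with EGCG (799), 717 to 753 with resveratrol (729) and 682 to 718 with the combination (709). Control and resveratrol libraries overlapped, and control and combination libraries did not. Its change with resveratrol was -0.07 ± 0.0325 (edgeR adjusted p = 0.0700), and it turned to 0.02 with scaling by library size alone. EIF4A2, which overlaps RFC4 on the opposite strand with more counts, had a log2 fold change of -0.34. RFC3 (ENSG00000133119, chr13:33818069-33966558, plus strand), a further small subunit, had 487 to 526 normalized counts in the control (median 508), 443 to 518 with EGCG (493), 445 to 525 with resveratrol (496) and 433 to 509.9 with the combination (474). The 4 groups overlapped. Its change with resveratrol was -0.04 ± 0.0451 (edgeR adjusted p = 0.436).

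For Okazaki fragments, LIG1 (ENSG00000105486, chr19:48115445-48170603, minus strand), the ligase that seals them, had 418 to 457 normalized counts in the control (median 449), 429 to 489 with EGCG (476), 439 to 492 with resveratrol (466) and 409 to 477 with the combination (432). All groups overlapped, and the change of 0.07 ± 0.0422 with resveratrol did not pass the test (edgeR adjusted p = 0.164). The flap endonuclease FEN1 rose by 0.06 ± 0.0291 (edgeR adjusted p = 0.0786), near the limit, and FADS2, which overlaps it on the same strand with fewer counts, had a log2 fold change of 0.99. Nucleotide supply split as well. TYMS (ENSG00000176890, chr18:657653-673578, plus strand), which makes thymidylate, had 981 to 1063 normalized counts in the control (median 1017), 971 to 1028 with EGCG (991), 835 to 911 with resveratrol (871) and 789.8 to 876 with the combination (836). Its libraries with resveratrol lay below all others, with a change of -0.22 ± 0.0328 (edgeR adjusted p = 5.44e-07). ENOSF1, which overlaps TYMS on the opposite strand with 32.4% of its counts, had a log2 fold change of -0.14 (edgeR adjusted p = 0.0537). Both subunits of ribonucleotide reductase rose, RRM1 by 0.07 ± 0.0301 (edgeR adjusted p = 0.0678) and RRM2 by 0.12 ± 0.0283 (edgeR adjusted p = 0.000625). Pseudogenes of RRM2 and FEN1 had means of 48.2 and 18.2 counts per library together, which leaves a small part of their reads uncertain.

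**Figure D4:**
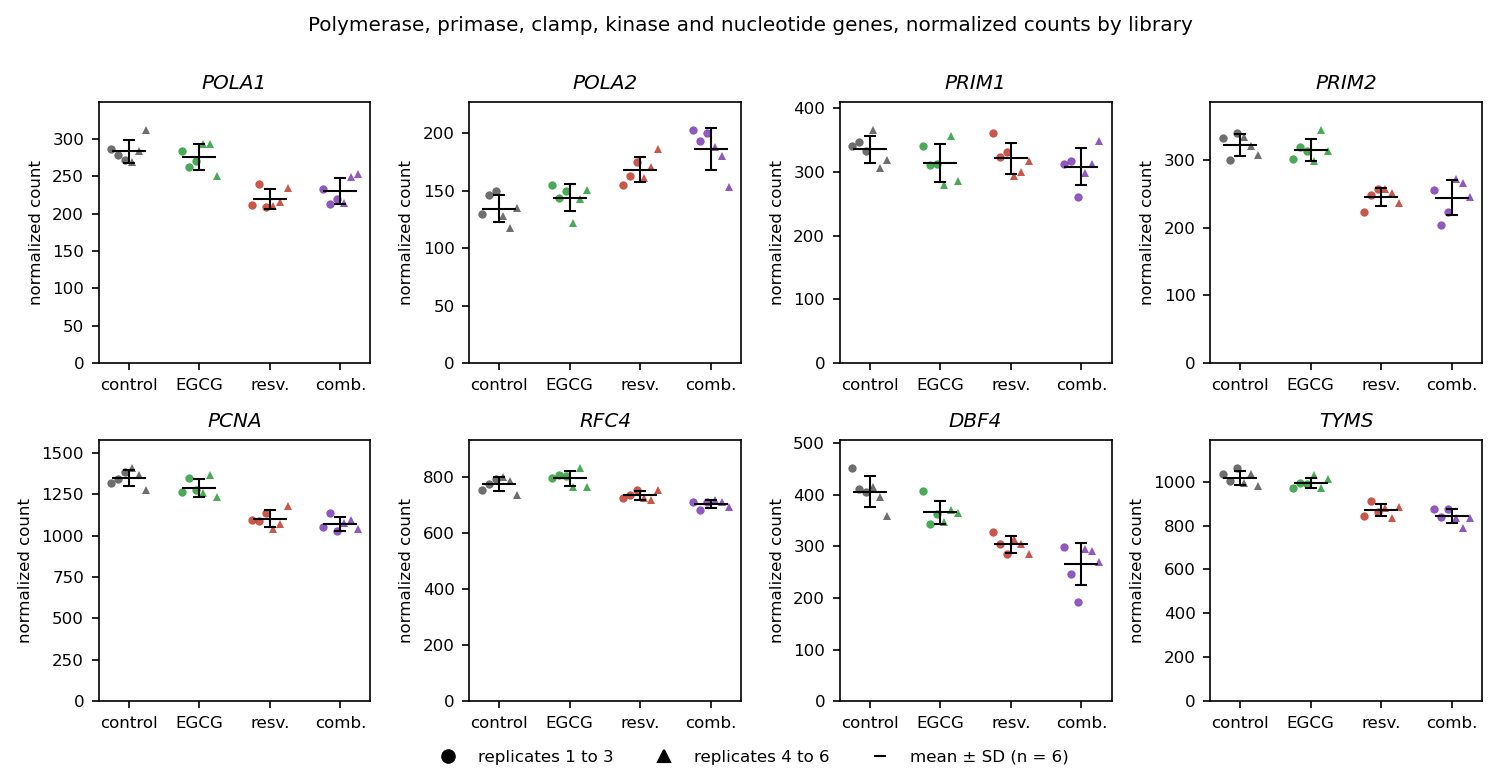
Normalized counts of POLA1, POLA2, PRIM1, PRIM2, PCNA, RFC4, DBF4 and TYMS in the 24 libraries, with the mean and SD of each group of 6; circles are replicates 1 to 3 and triangles replicates 4 to 6. POLA1, PRIM2, PCNA, DBF4 and TYMS are lower with resveratrol and with the combination than in the control, POLA2 is higher, and PRIM1 overlaps between all groups.

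With the combination, 32 of the 40 genes differed from the control, 11 upward and 21 downward (27.5% and 52.5% of the 40), where 29.9% of all tested genes rose and 29.9% fell. The groups did not overlap for 7 members above the control (17.5%) and 15 below it (37.5%), against 15.6% and 16.3% of all genes. The median log2 fold change of the 40 was -0.13, beside 0.00 over all genes. The comparisons of resveratrol and of the combination with the control share the 6 control libraries. Set side by side, the helicase counts were 1 up, 9 down and 2 not called in each, and the licensing counts went from 4 up and 2 down with resveratrol to 4 up and 5 down with the combination. The 3 licensing genes called only with the combination were ORC2 (-0.19 ± 0.0529, edgeR adjusted p = 0.00213), ORC4 (-0.32 ± 0.0904, edgeR adjusted p = 0.00288) and geminin, the CDT1 inhibitor (-0.11 ± 0.0488, edgeR adjusted p = 0.0451). Compared directly with resveratrol, ORC4 (edgeR adjusted p = 0.122) and geminin (edgeR adjusted p = 0.719) were not called, so an effect of EGCG on these 2 was not shown. Without combination replicate 3, the lowest of its group for both ORC genes, ORC2 stood at -0.14 and ORC4 at -0.23, and both were still called against the control. ORC4 overlaps MBD5 and ACVR2A on the opposite strand, with 55.2% and 26.6% of its counts, so its level is uncertain. Their log2 fold changes with the combination were -0.01 and -0.04.

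The members that had moved furthest with resveratrol were again at the ends of the range. DBF4 had a log2 fold change of -0.62 ± 0.0702 (edgeR adjusted p = 1.81e-09) and ORC5 of -0.60 ± 0.0677 (edgeR adjusted p = 1.71e-09), the only members past 1.5-fold in any comparison. Without combination replicate 3, which had the lowest value of its group for both, each stood at -0.54 and neither passed 1.5-fold. GINS2 was at -0.58, MCM5 at -0.50, MCM6 at -0.49, PRIM2 at -0.40, PCNA at -0.33, POLA1 at -0.30 and TYMS at -0.27. On the other side were POLA2 (0.47 ± 0.0731, edgeR adjusted p = 9.76e-07), ORC6 (0.32), ORC3 (0.27), CDC6 and CDT1 (0.23 each) and RRM2 (0.21). All 32 had the same direction in replicates 1 to 3 and in replicates 4 to 6 taken alone, as did the 28 with resveratrol.

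Against resveratrol alone, the combination gave 4 DEGs among the 40, 2 up (5.00%) and 2 down (5.00%), with 4.01% and 3.86% of all tested genes, so these shares were near those of all genes. CDC6 (0.08 ± 0.0271, edgeR adjusted p = 0.0667) and RRM2 (0.09 ± 0.0282, edgeR adjusted p = 0.0493) were higher, and ORC2 (-0.17 ± 0.0528, edgeR adjusted p = 0.0457) and DBF4 (-0.21 ± 0.0726, edgeR adjusted p = 0.0974) were lower. In all 4 the libraries of the combination and of resveratrol overlapped. An unadjusted p under 0.05 in edgeR was found for 13 of the 40, a larger share than the 2811 of the 15476 genes tested. The count of 4 became 9 with the replicate number as a block and 7 with replicates 1 to 3 against 4 to 6 as a term. Without combination replicate 3 the count was 2 and ORC2 (-0.12) and DBF4 (-0.12) were no longer called. It was also 2 without combination replicate 2 or without resveratrol replicate 5, and 6 without combination replicate 4 or replicate 6. For the MCM2 to MCM7 ring the differences were between -0.07 for MCM6 and 0.08 for MCM7. The 95% intervals of MCM6 (-0.13 to -0.004) and MCM7 (0.02 to 0.13) left out 0 in opposite directions, though neither gene was called. The 95% interval for GINS2 went from -0.13 to 0.06 and that for MCM5 from -0.09 to 0.02, on the log2 scale.

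The interaction of the agents, which asks whether the combination departs from the sum of the separate log2 changes, was called for 0 of the 40 genes in edgeR, where 0.207% of all tested genes were above the sum and 0.0582% below it. DESeq2 also gave 0, and 4 genes had an unadjusted p under 0.05 in edgeR (CDC6, LIG1, MCM6 and RFC4). The lowest adjusted p was 0.298, for CDC6, with an interaction of 0.12 ± 0.0386. The 95% intervals of the 40 lay between -0.43 (ORC4) and 0.26 (POLA1), so that larger departures than these lie outside the interval of every member. Standard errors of the interaction ran from 0.037 to 0.126, so small departures may have gone undetected.

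The effect of resveratrol can be read again in cells that all received EGCG, since the combination against EGCG shares no library with resveratrol against control. In this comparison 33 of the 40 were DEGs, 12 up (30.0%) and 21 down (52.5%), against 28.7% and 29.1% of all tested genes, with a median log2 fold change of -0.10. All 28 members called with resveratrol against control were called again in the same direction (100% of the 28 and 84.8% of the 33). Over all genes, 7218 of 8807 were (82.0%, and 80.6% of the 8950). The signs matched for 38 of 40 genes, and those that differed were GINS4 and LIG1. Pearson's correlation of the log2 fold changes was 0.953 over the 40 genes and 0.869 over all tested genes; these are descriptions across genes, which are not independent replicates. Again all 6 MCM ring genes fell, with no overlap between groups, from -0.17 for MCM4 to -0.54 for MCM6. GINS2 was at -0.58 ± 0.0473, ORC5 at -0.44 ± 0.0690 and POLA2 at 0.37 ± 0.0724. The members called only in this comparison were ORC4, CDC45, RFC2, RFC5 and LIG1.

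**Figure D5:**
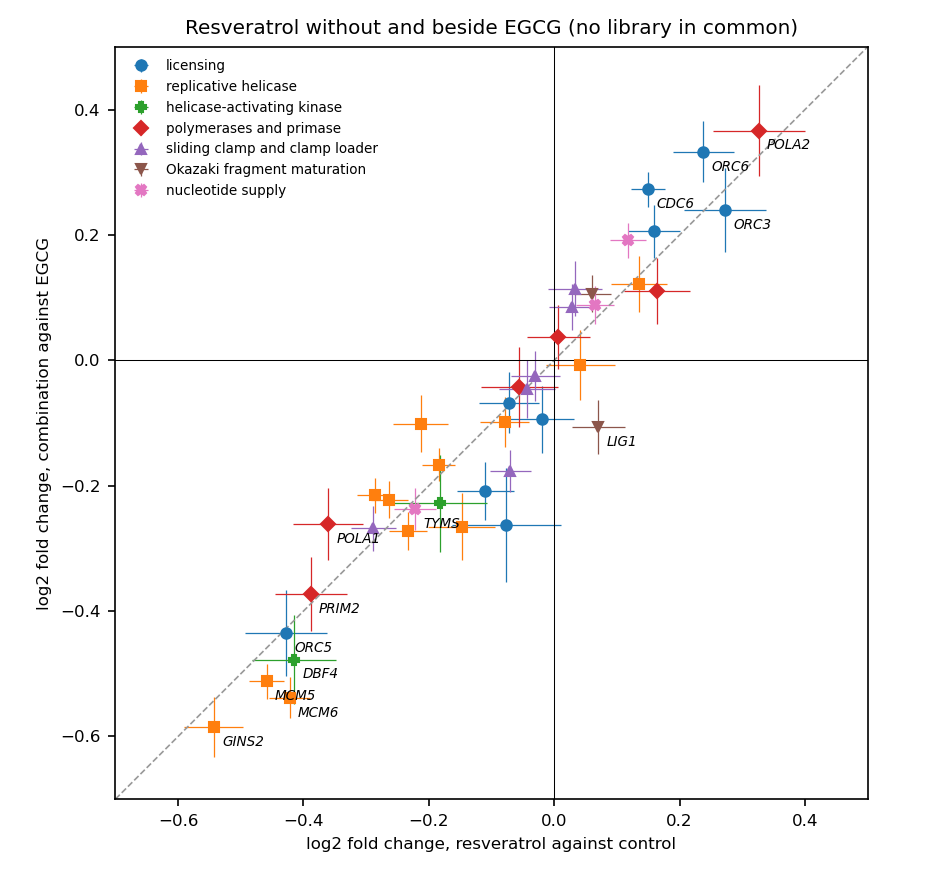
Log2 fold change of each of the 40 genes with resveratrol in cells without EGCG (horizontal axis) and in cells with EGCG (vertical axis), with bars of ± 1 standard error and 1 color and marker per role; the dashed line marks equal values. The points follow the line from GINS2 at -0.54 and -0.58 to POLA2 at 0.33 and 0.37, and LIG1 is among the few that change sign.

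Other genes of DNA replication moved in both directions. In a list of 45 further replication genes, resveratrol upregulated 11 and downregulated 16, with a median log2 fold change of -0.01, where 28.9% of all tested genes rose and 28.0% fell. The combination upregulated 14 and downregulated 17 of the 45, with a median of -0.02, where 29.9% of all tested genes rose and 29.9% fell. The largest rise was that of POLD4, the smallest subunit of polymerase delta (0.69 ± 0.0735 with resveratrol), followed by ASF1B, a histone chaperone (0.41 ± 0.0411). The largest falls were those of the dUTP pyrophosphatase DUT (-0.65 ± 0.0347), the nucleotide pyrophosphatase DCTPP1 (-0.51 ± 0.0491) and UHRF1, which recruits maintenance DNA methylation to new strands (-0.40 ± 0.0346). EGCG alone called 1 of the 45, ASF1B (0.14 ± 0.0422, edgeR adjusted p = 0.0964). TOP2A, the topoisomerase that resolves linked daughter DNA, was the 1 gene of the 45 with a called interaction (-0.24 ± 0.0552, edgeR adjusted p = 0.0591).

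In a list of 20 E2F factors and S phase entry genes, 6 rose and 4 fell with resveratrol, and 6 rose and 7 fell with the combination. Over all tested genes 28.9% rose and 28.0% fell with resveratrol, so these counts were near or below the shares over all genes, and 29.9% rose and 29.9% fell with the combination. CDKN1A, the p21 inhibitor of cyclin-dependent kinases, had 664 to 737 normalized counts in the control (median 694), 672 to 778 with EGCG (730.2), 1452 to 1564 with resveratrol (1489) and 1634 to 1915 with the combination (1771). Its groups with resveratrol were far above those without it, with log2 fold changes of 1.11 ± 0.0418 and 1.36 ± 0.0417 against the control. CCNA2, the S phase cyclin A, had 1279 to 1355 normalized counts in the control (median 1332), 1157 to 1256 with EGCG (1199), 908 to 1045 with resveratrol (962) and 694 to 882 with the combination (817). Here every treated group lay below the control, EGCG included (-0.14 ± 0.0404, edgeR adjusted p = 0.0914). TFDP2, an E2F partner, rose by 0.64 ± 0.0569 with resveratrol, and the repressor E2F8 fell by 0.29 on the log2 scale. Of 14 genes of replication stress and the fork checkpoint, 3 rose and 5 fell with resveratrol (28.9% and 28.0% of all tested genes), and 5 rose and 6 fell with the combination (29.9% and 29.9% of all tested genes). The kinases WEE1 (-0.42 ± 0.0527) and CHEK1 (-0.33 ± 0.0502) and the ATR activator ETAA1 (-0.36 ± 0.112) fell most with resveratrol, and HLTF, a fork remodeller, rose most (0.25 ± 0.0549).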

How the data were processed

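RNA-seq of MDA686TU cells was analysed in 24 libraries, 6 in each of 4 groups taken from the sample labels. Per the labels and the study's methods, the authors extracted total RNA, prepared TruSeq stranded mRNA libraries, trimmed the read pairs (Trimmomatic 0.36), mapped these to GRCh38 (HISAT2 2.0.4) and sorted the alignments (SAMtools 1.3.1), versions being those of the submitters' processing notes. The authors deposited raw counts per gene, without normalization or pooling. Normalized counts (a signal that is never negative) were also deposited, and dividing each library's raw counts by its DESeq2 1.42.0 size factor gave the same values. The FPKM values, also deposited, are these normalized counts divided by a constant per gene. The counting program, the annotation release and the strand setting are not given in the sources used here.

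A joint fit of the 24 libraries was made on raw counts in R 4.3.3 with edgeR 4.0.16 (filterByExpr, TMM normalization, quasi-likelihood test, 4 group means), and p-values were adjusted over all 15476 tested genes. Group values are the authors' normalized counts, levels between genes are FPKM, and exact permutation tests used log2 CPM with a prior count of 2. The steps were tested on simulated data. The sums of 7034872 to 11735574 counts per library limit precision most for genes with few counts. Symbols came from Ensembl identifiers, matched for 60261 of 60617 genes, and gene positions (GRCh38) from GENCODE v44. The members, the role groups and the gene lists were chosen with earlier results of these data known. Each gene was named within its role group, and library values were given for the 3 genes of each large role group, and the 1 of each small one, that changed most with resveratrol. The alternatives were DESeq2, 2 other scalings, 2 other filters on low counts, stricter limits, only the groups compared, the replicate number as a block, replicates 1 to 3 against 4 to 6 as a term or each alone, and each library left out in turn.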

Additional observations from a re-analysis of the deposited data

Results flagged for a closer look

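In 5 of the 160 groups of 6 libraries formed by the 40 genes (3.12%), the lowest or highest library stood far from the others by Dixon's criterion, which chance alone meets in about 1 of 20 groups. ORC5 had 202 normalized counts in EGCG replicate 4, with the next library at 244. POLA2 was also lowest in EGCG replicate 4, at 122 beside 143. CDT1 had 855 in EGCG replicate 5, with the next at 982, and RFC3 had 443 in EGCG replicate 2, with the next at 490. FEN1 was highest in combination replicate 3, at 2201 beside 2091.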

How the results depend on the processing

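Members called against the control numbered 25 to 29 with resveratrol and 31 to 34 with the combination when each library was left out in turn, 30 to 33 for the combination against EGCG, 2 to 6 for the combination against resveratrol, and 0 for EGCG alone and for the interaction. A 1.5-fold limit left 0 with resveratrol, 2 with the combination, 0 against resveratrol and 0 against EGCG, and the shares of all tested genes at this limit were not counted. The count for the combination against resveratrol, 4, was the least stable: 2 with an adjusted p under 0.05, 1 with only the groups compared, 9 with the replicate block, 7 with replicates 1 to 3 against 4 to 6 as a term, and 0 in replicates 4 to 6 alone. Deviations of same-numbered libraries correlated weakly, at -0.01 to 0.13 over 36 pairs (median 0.05), with 2 of them over 0.1. Of the 36, 15 correlated best with their own number among the 6 libraries of the other group, which is more than an even draw would give. Whether the replicate number pairs the samples was not tested beyond these values. With the block, the counts were 29 with resveratrol, 34 with the combination and 33 against EGCG. Scaling by library size alone turned RFC4 with resveratrol to 0.0182 on the log2 scale (adjusted p = 0.674). Of 1476 values for single genes under the alternatives, 1385 kept direction and call, 90 kept direction but lost the call (39 of them through the 1.5-fold limit) and 1 reversed; the cause was not tested.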
